A study of Mus musculus with 24 samples.

Results

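Integrins are the receptors by which cells hold on to the matrix around them, and laminins are the cross-shaped proteins that form the sheet of a basement membrane. The genes described here are the 34 integrin and laminin genes among the 18193 genes that the arrays measured with a single gene symbol: 16 integrin alpha subunits, 8 integrin beta subunits and 10 laminin chains. They were chosen by gene symbol alone, and each gene is represented by the probe set with its highest mean over all arrays. Itga11 and Itgad were not analysed here.

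The arrays measured total RNA from mouse retinal endothelial cell lines, wild type or lacking Frizzled4 (Fz4-/-), in 8 groups of 3 replicate arrays. All lines came from adult animals of mixed gender on a C57Bl6/129 mixed background. Wild type and Fz4-/- lines alike carried the Immorto-mouse transgene, a temperature-sensitive large T-antigen of SV40 driven by the H2Kb promoter, which responds to gamma interferon. Cells were passaged at 33 °C on 1% gelatin, and RNA was made from cells kept at 37 °C without the interferon. Wild type and Fz4-/- cells were each grown on gelatin-coated plates or on Matrigel, a laminin-rich basement membrane extract. For Matrigel, cells starved for 24 h in medium with 1% serum were detached, replated and harvested after 6 h. The labels do not say whether the gelatin cultures were starved and replated, so Matrigel cannot be told apart from those steps. Wild type and Fz4-/- cells were also each co-cultured with HEK293 cells, a human embryonic kidney line, either as control cells or stably expressing Norrin, the secreted ligand of Frizzled4. RNA of a co-culture was a roughly equal mixture of mouse endothelial and human RNA, and human transcripts can bind mouse probes. How many independent lines stand behind each genotype is not given in the sources used here.

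An integrin is a pair of one alpha and one beta subunit, and the pair decides the ligand. The beta 1 subunit joins most alpha subunits, among them alpha 3, alpha 6 and alpha 7 for laminin, alpha 1 and alpha 2 for collagen, and alpha 5 for fibronectin, while beta 4 pairs with alpha 6 alone. A laminin is a trimer of an alpha, a beta and a gamma chain, and the laminins of blood vessels carry the alpha 4 or the alpha 5 chain. In the retina, Norrin acting through Frizzled4 is known for guiding the growth of vessels and the formation of the blood-retina barrier.

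Promoter sequences are shown for 4 members whose differences are described below: Itga4, which fell on Matrigel, and Itga3, Lamb1 and Lama2, which were higher in wild type cells next to Norrin-expressing cells. They come from RefSeq on build GRCm38.p6 and run from 250 bases before to 50 bases after the annotated start, 5′ to 3′ on the gene's strand. Capitals mark the GC box GGGCGG on either strand and, in Lama2, also the SRF CArG box. Itga4 lies on the plus strand at chr2:79255176-79255475, Itga3 on the minus strand at chr11:95076665-95076964, Lamb1 on the plus strand at chr12:31265043-31265342 and Lama2 on the minus strand at chr10:27616893-27617192.
Itga4: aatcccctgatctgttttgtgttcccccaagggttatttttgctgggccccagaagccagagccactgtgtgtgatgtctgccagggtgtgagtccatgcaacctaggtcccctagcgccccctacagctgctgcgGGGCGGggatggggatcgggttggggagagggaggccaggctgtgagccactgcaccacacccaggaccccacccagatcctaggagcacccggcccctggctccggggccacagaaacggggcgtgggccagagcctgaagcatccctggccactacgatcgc
Itga3: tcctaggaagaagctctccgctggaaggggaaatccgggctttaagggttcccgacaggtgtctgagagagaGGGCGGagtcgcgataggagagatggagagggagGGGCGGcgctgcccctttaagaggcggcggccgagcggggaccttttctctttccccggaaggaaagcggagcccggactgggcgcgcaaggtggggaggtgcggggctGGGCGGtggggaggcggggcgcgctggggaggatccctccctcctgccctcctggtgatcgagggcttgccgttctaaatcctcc
Lamb1: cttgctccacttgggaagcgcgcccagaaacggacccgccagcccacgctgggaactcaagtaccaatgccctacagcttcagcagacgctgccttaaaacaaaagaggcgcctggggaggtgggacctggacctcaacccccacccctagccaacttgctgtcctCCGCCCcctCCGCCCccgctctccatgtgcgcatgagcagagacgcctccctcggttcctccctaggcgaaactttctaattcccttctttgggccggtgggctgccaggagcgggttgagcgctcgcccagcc
Lama2: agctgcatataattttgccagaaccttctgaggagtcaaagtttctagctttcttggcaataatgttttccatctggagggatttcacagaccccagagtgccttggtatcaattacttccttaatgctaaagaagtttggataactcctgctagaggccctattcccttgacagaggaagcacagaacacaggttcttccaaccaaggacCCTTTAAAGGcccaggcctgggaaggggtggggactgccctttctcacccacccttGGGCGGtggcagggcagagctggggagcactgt

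RefSeq promoters were matched for 22 of the 34 members, 25 promoters in all. The GC box was found in 12 of these 25, belonging to 11 genes, and in 35.7% of all 32851 promoters of the same length. The CArG box was found in the promoters of Lama2 and Itgb6 and in 1.63% of all promoters. The AP-1 site TGACTCA, which reads TGAGTCA on the other strand, was found in 2 member promoters (Itgax and Itga9) and in 5.2% of all, and the TEAD site CATTCC in 3 (Lamb3, Itga10 and Itgb1) and in 14.7% of all. The TCF/LEF site CTTTGAT, held by 3.73% of all promoters, and the TATA box TATAAA, held by 13.6%, were in none of the 25. Both strands were searched, and a match is a stretch of letters only.

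Values are log2 intensities, and a difference of 1 is a doubling. A gene was called past the threshold when limma's moderated test, with Benjamini-Hochberg adjustment over all 18193 genes, gave an adjusted p below 0.05. The ± after a difference is its standard error (SE) from limma, from 3 arrays a group. Nothing in the labels states that replicates were separate cultures, and a p-value here speaks of the scatter among arrays, which may be technical. A level of one gene cannot be set against that of another, since each probe set has its own affinity.

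The genotype labels were checked with Fzd4, the deleted gene, which read 8.44 to 9.09 in wild type and 4.61 to 5.50 in Fz4-/- cells on gelatin, and differed by -3.42 to -3.74 in the 4 genotype comparisons. Ndp, which encodes Norrin, stayed between 2.02 and 3.35 on every array, and its mouse probe set does not check for the transgene of the HEK293 cells. The endothelial markers were strong: 10 of 11 lay above the median gene on every array of cells grown alone, Cdh5 and Pecam1 among them. Of other cell types, none of 8 pericyte and smooth muscle, 4 fibroblast or 5 epithelial markers did so there, nor did the leukocyte marker Ptprc, at 2.64 to 2.90 as group means. Glul, of the glial list, and Cd68, of the leukocyte list, did. Dcn (fibroblast), Acta2 (smooth muscle) and Laptm5 (leukocyte) were above the median gene on some of these arrays, at group means up to 7.48, 8.21 and 8.12. The neuronal marker Tubb3 was too, at up to 6.44. In 6 of the 8 groups replicate 1 stood apart: the SD of gene differences was 0.147 to 0.193 between replicates 2 and 3 and 0.299 to 0.354 between either and replicate 1. In the Fz4-/- co-cultures the 3 replicates were equally far apart, at 0.182 to 0.226. The arrays also fell into 3 sets by their median gene: 6.19 to 6.42 for cells grown alone, 4.44 to 4.50 for wild type co-cultures and 4.19 to 4.31 for Fz4-/- co-cultures.

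Of the 34 members, 12 were above the median gene on every array: the integrin subunits Itga2b, Itga3, Itga5, Itga6, Itgav, Itgb1, Itgb3 and Itgb4 and the laminin chains Lama5, Lamb1, Lamb2 and Lamc1. These include alpha 5 and alpha v, which bind fibronectin and vitronectin, and the beta 1 and gamma 1 chains of most vascular laminins. Another 15 members were below the median gene on every array, among them Itgal, Itgam, Itgax and Itgb2, subunits known from leukocytes. On the arrays of cells grown alone, 18 members were below the median gene throughout, and small differences among them are differences between dim probe sets.

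The largest difference on Matrigel among the 34 members was a fall of the alpha 4 integrin subunit by about 1 log2 unit, in both genotypes. Itga4, whose protein binds fibronectin and the adhesion molecule VCAM1, read 8.80, 8.74 and 8.69 in wild type cells on gelatin and 7.61, 7.80 and 7.87 on Matrigel. In Fz4-/- cells it read 10.63, 10.21 and 10.23 on gelatin and 9.68, 9.11 and 9.23 on Matrigel. In both genotypes every Matrigel array lay below every gelatin array. The difference was -0.98 ± 0.15 in wild type (1.98-fold lower, adjusted p = 0.0016 by limma) and -1.02 ± 0.15 in Fz4-/- cells (2.02-fold lower, adjusted p = 0.00119). With only replicates 2 and 3 the differences were -0.88 and -1.05. Of the 4 other Itga4 probe sets, 3 differed by -1.03 to -1.66, and the dimmest, at a mean level of 2.39, by -0.21 and -0.27.

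In wild type cells 4 of the 34 members were called on Matrigel, 1 higher and 3 lower, a share of 11.8% beside 18.4% of all genes (6.71% higher and 11.7% lower). In Fz4-/- cells 5 were called, 3 higher and 2 lower, 14.7% of the members beside 19.7% of all genes (7.91% higher and 11.8% lower). The median difference over the members was 0.00 in wild type and 0.04 in Fz4-/- cells, beside -0.05 and -0.05 over all genes. All members called were integrin alpha subunits. No beta subunit and no laminin chain was past the threshold. The Matrigel arrays lay wholly above or below the gelatin arrays for 12 members in wild type (3 higher, 9 lower) and 11 in Fz4-/- cells (6 higher, 5 lower), beside 38.5% and 39.1% of all genes in either direction. Centring each array on its median gene turned the split to 0 higher and 4 lower in wild type and to 2 higher and 3 lower in Fz4-/- cells.

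**Figure D1:**
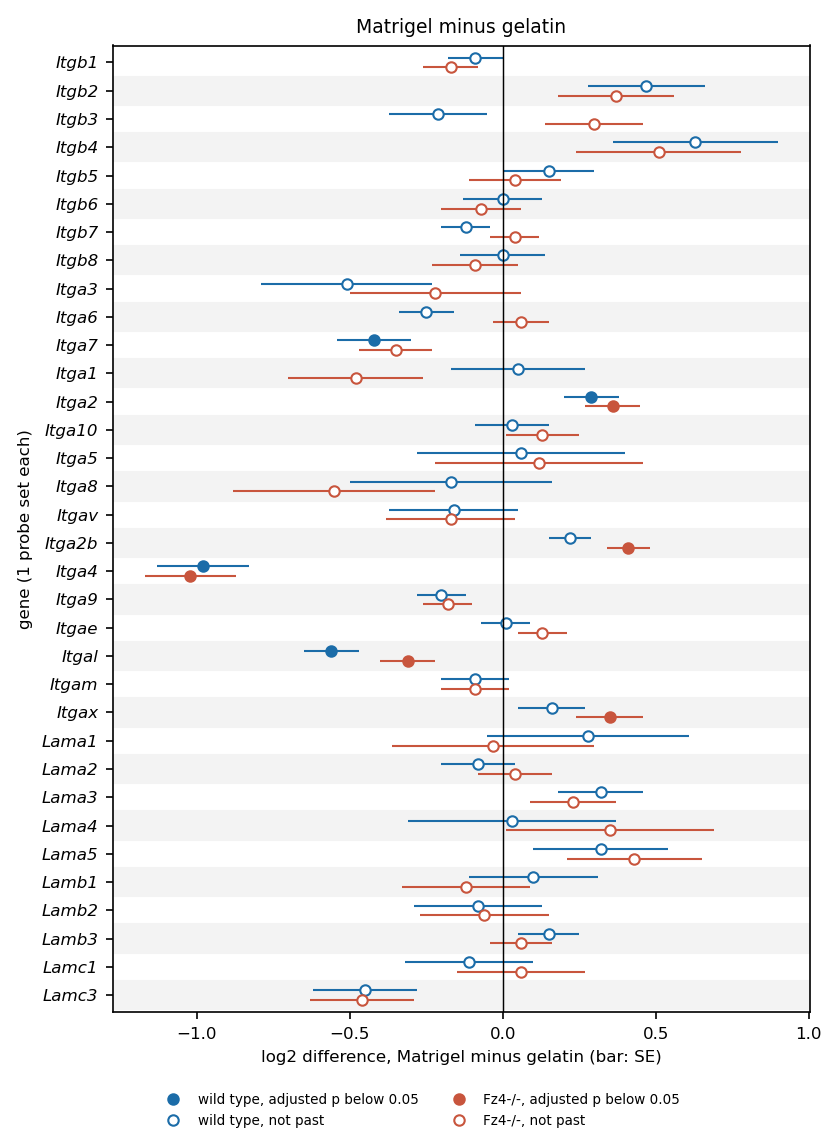
Difference in log2 intensity between Matrigel and gelatin (x axis) for each of the 34 members (y axis, by role), in wild type and Fz4-/- cells, with bars for the SE of limma and filled points for an adjusted p below 0.05. Itga4 lies at -0.98 and -1.02, and the other members between -0.56 and 0.63.

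Among the integrin alpha subunits of leukocytes, Itgal, the alpha chain of LFA-1, fell on Matrigel in both genotypes. It read 4.84, 5.06 and 5.08 on gelatin and 4.47, 4.33 and 4.48 on Matrigel in wild type cells, a difference of -0.56 ± 0.09 (adjusted p = 0.00141). In Fz4-/- cells it read 4.78, 4.85 and 4.76 on gelatin and 4.42, 4.53 and 4.52 on Matrigel, a difference of -0.31 ± 0.09 (adjusted p = 0.0277). The Matrigel arrays lay below the gelatin arrays throughout, but Itgal was below the median gene on every array. The Fz4-/- call was lost without any 1 of the 6 Fz4-/- arrays, at adjusted p of 0.0527 to 0.0936. Its second probe set, at a mean of 2.81, differed by -0.14 and -0.32.

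Itgax, which encodes the alpha chain CD11c, was called higher on Matrigel in Fz4-/- cells, from 3.44, 3.48 and 3.20 to 3.72, 3.60 and 3.86. The difference of 0.35 ± 0.11 had an adjusted p of 0.0471, and the call was held under 10 of 22 other settings. In wild type cells the difference was 0.16 ± 0.11, and the difference between these responses, 0.19 ± 0.16, was not past the threshold.

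The alpha 2 subunit, a collagen receptor, rose on Matrigel in both genotypes by a small amount. Itga2 read 4.45, 4.53 and 4.56 on gelatin and 4.88, 4.80 and 4.73 on Matrigel in wild type, and 4.33, 4.39 and 4.39 against 4.56, 4.86 and 4.78 in Fz4-/- cells. The groups did not overlap, and the differences were 0.29 ± 0.09 (adjusted p = 0.0425) and 0.36 ± 0.09 (adjusted p = 0.0153). Itga2 is dim on all arrays, and the wild type call was lost without any 1 of the 6 wild type arrays (adjusted p of 0.06 to 0.116). The Fz4-/- call was lost without Matrigel replicate 2 (adjusted p = 0.0625) or 3 (0.0519).

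The platelet subunit alpha IIb, Itga2b, rose in Fz4-/- cells from 6.82, 6.85 and 6.79 to 7.27, 7.21 and 7.20. The difference of 0.41 ± 0.07 (adjusted p = 0.00276) was larger than the spread of either group. In wild type cells Itga2b read 6.88, 6.90 and 7.05 on gelatin and 7.17, 7.16 and 7.17 on Matrigel, without overlap, and the difference of 0.22 ± 0.07 had an adjusted p of 0.0508.

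Among the alpha subunits that bind laminin, Itga7 fell in wild type cells from 5.28, 5.33 and 5.58 to 4.76, 5.16 and 5.01, by 0.42 on the log2 scale (SE 0.12, adjusted p = 0.0304). In Fz4-/- cells it differed by -0.35 ± 0.12 (adjusted p = 0.058). Itga7 was below the median gene on every array, and its wild type call was lost without gelatin replicate 2 or 3 or Matrigel replicate 1 or 3 of wild type (adjusted p of 0.0556 to 0.11). Itga3 and Itga6, both bright, differed in wild type cells by -0.51 ± 0.28 (adjusted p = 0.241) and -0.25 ± 0.09 (0.0681), and in Fz4-/- cells by -0.22 ± 0.28 and 0.06 ± 0.09.

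The beta subunits had no call. Itgb1 read 11.58 to 11.72 on gelatin and 11.49 to 11.65 on Matrigel in wild type cells, with a difference of -0.09 ± 0.09 (adjusted p = 0.527), and -0.17 ± 0.09 (0.21) in Fz4-/- cells. On its brightest probe set without a name suffix, at a mean of 9.56, Itgb1 was called lower in both genotypes, by -0.27 (adjusted p = 0.0472) and -0.32 (0.0217). Itgb4, the partner of alpha 6, read 7.66, 8.33 and 8.40 on gelatin and 8.32, 9.01 and 8.95 on Matrigel in wild type cells. The groups overlapped through replicate 1, and the difference was 0.63 ± 0.27 (adjusted p = 0.136), with 0.51 ± 0.27 (0.216) in Fz4-/- cells.

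Among the laminin chains, Lamc1 (gamma 1) differed by -0.11 ± 0.21 in wild type and 0.06 ± 0.21 in Fz4-/- cells, and Lamb1 (beta 1) by 0.10 ± 0.21 and -0.12 ± 0.21. Lama4 differed by 0.03 ± 0.34 and 0.35 ± 0.34, and Lama5 by 0.32 ± 0.22 (adjusted p = 0.34) and 0.43 ± 0.22 (0.184). The 10 chains ranged from -0.45 to 0.32 in wild type and from -0.46 to 0.43 in Fz4-/- cells, with Lamc3 lowest in both. Of the members not yet named, Itga9 and Itga10, the leukocyte subunits Itgae and Itgam, and Itgb6 and Itgb7 lay between -0.20 and 0.13.

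Deviations of same-numbered arrays from their group means correlated in cells grown alone, at 0.37 to 0.72 for Matrigel in wild type and 0.40 to 0.66 in Fz4-/- cells, but the array of the same number was the closest match in only 2 and 3 of 6 checks. With the replicate number as a block 9 members were called on Matrigel in wild type (5 higher, 4 lower) and 12 in Fz4-/- cells (7 higher, 5 lower), all earlier calls included. In wild type cells the block added Itga3 (-0.51, adjusted p = 0.0087), Itgb4 (0.63, 0.00309), Lama5 (0.32, 0.0423), Itgb2 (0.47, 0.0252) and Itga2b (0.22, 0.0428). In Fz4-/- cells it added Itga1 (-0.48, adjusted p = 0.00939), Itga7 (-0.35, 0.0255), Itga8 (-0.55, 0.00642), Itgb3 (0.30, 0.0462), Itgb4 (0.51, 0.00784), Lama4 (0.35, 0.0288) and Lama5 (0.43, 0.0115). There the other probe sets of Itgb3, Lama4 and Itga8 differed by -0.31, -0.19 and -0.01. That of Itga1 differed by -0.27 and those of Lama5 by 0.45 and 0.21. The share of all genes called with the block is not set beside these counts, so their rise is no result about the members alone.

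**Figure D2:**
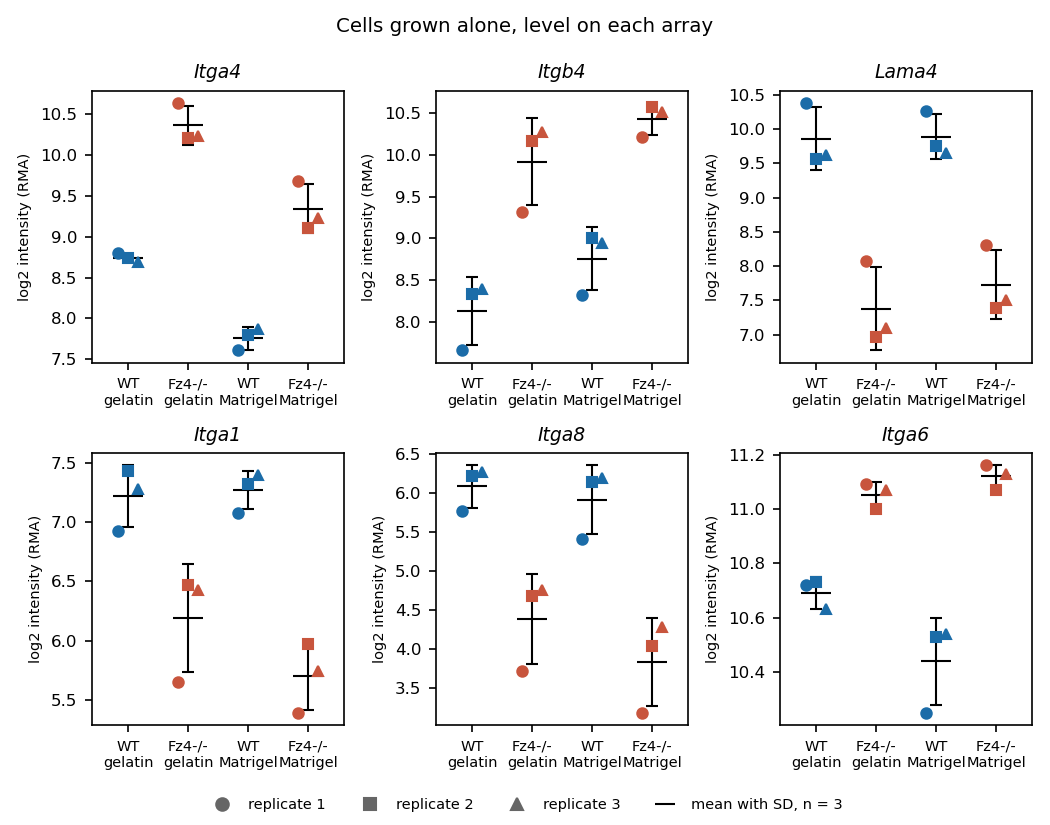
Log2 intensity (y axis) on each array of cells grown alone for 6 members, by genotype and surface (x axis), with the mean and SD of 3 replicates and a symbol for each replicate number. Itga4 is lower on Matrigel and higher in Fz4-/- cells without overlap, and Lama4 is higher on the replicate 1 arrays than on the others in all 4 groups.

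No member's Matrigel response differed between the genotypes past the threshold in limma, beside 0.0165% of all genes, and 2 of the 34 had an unadjusted p below 0.05. These were Itga6, with a difference of responses of 0.32 ± 0.13, and Itgb3, with 0.52 ± 0.22, both at an adjusted p of 1. On Matrigel the second probe set of Itgb3 differed by -0.34 in wild type and -0.31 in Fz4-/- cells, and that of Itga6 by -0.25 and 0.11. For Itga4 the difference of responses was -0.03 ± 0.22.

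Among genes for proteins that couple integrins to the cytoskeleton, 27 focal adhesion genes were measured. In wild type cells 15 of the 27 were lower on Matrigel, none was higher and 12 were not past the threshold (median -0.37), beside 11.7% of all genes lower. In Fz4-/- cells 12 were lower, 1 was higher and 14 were not past it (median -0.28), beside 11.8% of all genes lower. Zyx, which encodes the stress-fibre protein zyxin, differed by -1.20 ± 0.10 and -1.36 ± 0.10, and Bcar1, the scaffold p130Cas, by -0.86 ± 0.08 and -1.04 ± 0.08. Fermt2, the integrin activator kindlin-2, differed by -0.92 ± 0.09 and -0.83 ± 0.09. Fermt3, the kindlin of blood cells, differed by -0.92 ± 0.12 in wild type, and Tgfb1i1, the paxillin relative Hic-5, by -0.62 ± 0.13 in Fz4-/- cells.

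The counts of the next 3 lists stand beside 6.71% of all genes higher and 11.7% lower on Matrigel in wild type cells. In Fz4-/- cells these shares were 7.91% and 11.8%. Of 15 other receptors for laminin and matrix, 1 was lower in wild type cells and 2 lower and 1 higher in Fz4-/- cells. Cd44, the hyaluronan receptor, differed by -0.78 ± 0.24 and -0.90 ± 0.24. Of 19 other basement membrane genes, 1 was higher and 3 lower in wild type and 2 lower in Fz4-/- cells. Ntn4, a netrin that binds laminin, differed by -0.57 ± 0.09 and -1.23 ± 0.09. Of 21 soluble and interstitial ligands, 1 was higher and 3 lower in wild type and 4 higher and 4 lower in Fz4-/- cells. Thbs1, thrombospondin 1, differed by -1.22 ± 0.17 and -1.60 ± 0.17, and Tgfb2, a growth factor of the TGF-beta family, by -1.18 ± 0.27 and -2.27 ± 0.27. Of 8 pericyte and smooth muscle markers, 2 were lower in wild type (median -0.10) and 1 in Fz4-/- cells (median 0.06). Acta2, smooth muscle actin, was lower in both, by -0.93 ± 0.18 and -1.80 ± 0.18. Of 11 endothelial markers 2 were higher in each genotype, with Tek at 0.80 ± 0.12 and 0.98 ± 0.12. Of 4 fibroblast markers only Col1a1 was called, at 0.77 ± 0.10 and 0.52 ± 0.10. Of 7 leukocyte markers only Fcer1g was called, at -0.66 ± 0.14 and -0.46 ± 0.14. Of the neuronal list, Tubb3 was lower (-0.65 and -0.98) and Rbfox3 higher (0.31 and 0.48). Gfap, of the glial list, was higher in wild type (0.48), and no epithelial marker was called. The part of these cell types in the differences was not tested.

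Between the genotypes in cells grown alone, the largest difference among the members was in the alpha 4 chain of laminin, which was lower in Fz4-/- cells, and the largest in the other direction were in Itgb4 and Itga4. On gelatin 9 of the 34 members were called, 3 higher and 6 lower in Fz4-/- cells, 26.5% of the members beside 14.9% of all genes (7.21% higher and 7.73% lower). On Matrigel 9 were called, 4 higher and 5 lower, 26.5% beside 15.7% (6.91% higher and 8.77% lower). The genotypes did not overlap for 19 members on gelatin (5 higher, 14 lower in Fz4-/- cells) and 14 on Matrigel (7 and 7), beside 32.6% and 32.7% of all genes. The medians over the members were -0.11 and -0.06, beside 0.00 and 0.02 over all genes. These comparisons are between cell lines, so a difference of line and a difference of genotype cannot be told apart. In such bulk RNA, fewer cells that express a gene and less of its RNA in each cell cannot be told apart either.

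**Figure D3:**
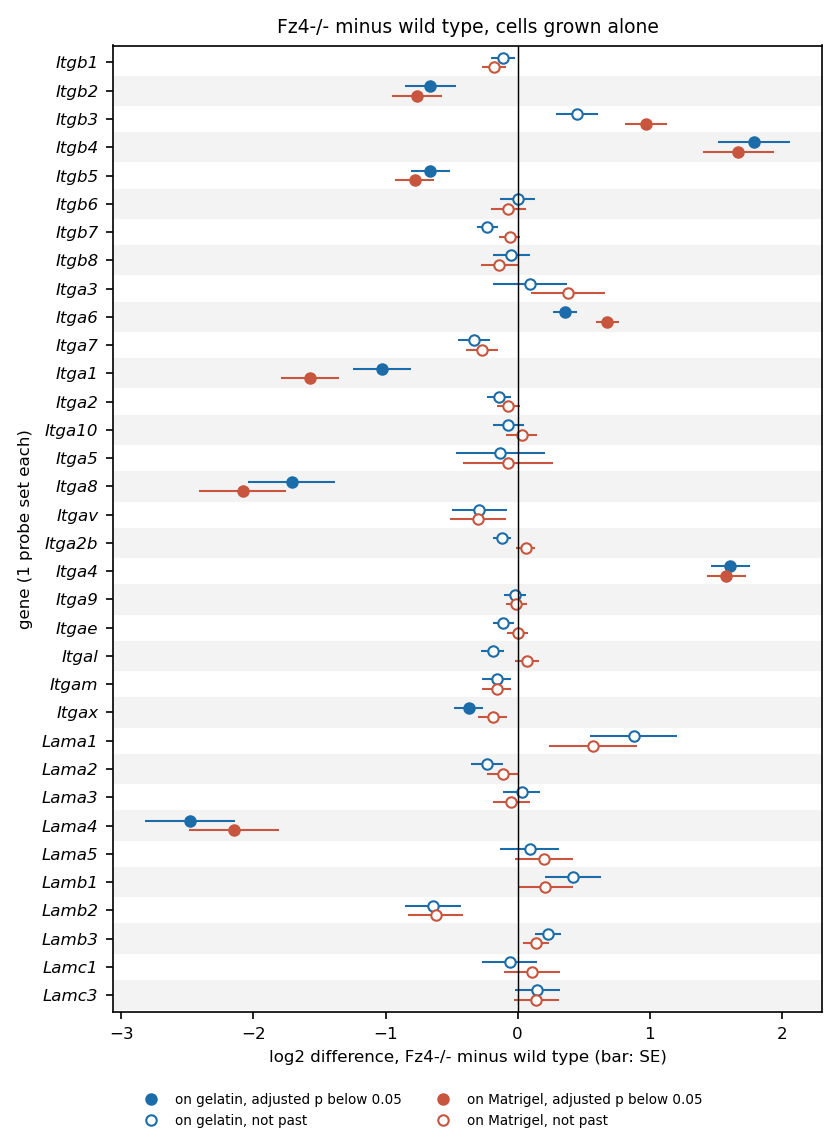
Difference in log2 intensity between Fz4-/- and wild type cells grown alone (x axis) for each of the 34 members (y axis, by role), on gelatin and on Matrigel, with bars for the SE of limma and filled points for an adjusted p below 0.05. Lama4 lies at -2.48 and -2.15, and Itgb4 and Itga4 lie between 1.58 and 1.79.

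Lama4 read 10.38, 9.57 and 9.62 in wild type and 8.08, 6.96 and 7.10 in Fz4-/- cells on gelatin. On Matrigel it read 10.26, 9.75 and 9.65 in wild type and 8.31, 7.39 and 7.50 in Fz4-/- cells. Every Fz4-/- array lay more than 1 unit below every wild type array of the same surface. The difference was -2.48 ± 0.34 on gelatin (5.58-fold lower, adjusted p = 0.00047) and -2.15 ± 0.34 on Matrigel (4.45-fold lower, adjusted p = 0.00114). Its second probe set differed by -2.47 and -2.76.

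Of the other laminin chains, none was called. Lamb2 (beta 2), of the laminins at vessels and synapses, differed by -0.64 ± 0.21 (adjusted p = 0.0592) and -0.62 ± 0.21 (0.0658), and was past the threshold with the replicate block on gelatin (0.0107) and on Matrigel (0.0128). Lama5, the other vascular alpha chain, differed by 0.09 ± 0.22 and 0.20 ± 0.22, and Lamc1 by -0.06 ± 0.21 and 0.11 ± 0.21. Lama1 read 5.84, 4.05 and 4.61 in Fz4-/- cells on gelatin against 3.95 ± 0.05 (SD, n = 3) in wild type, so that replicate 1 held most of its difference.

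Among the beta subunits, Itgb4 read 7.66, 8.33 and 8.40 in wild type and 9.32, 10.17 and 10.28 in Fz4-/- cells on gelatin, without overlap. The difference was 1.79 ± 0.27 (3.47-fold, adjusted p = 0.00107), and on Matrigel, where Fz4-/- arrays read 10.22, 10.57 and 10.51 against 8.32, 9.01 and 8.95, it was 1.67 ± 0.27 (3.19-fold, adjusted p = 0.0016). Itga6, its only partner, was bright in both genotypes and higher in Fz4-/- cells by 0.36 ± 0.09 on gelatin (adjusted p = 0.0179) and 0.68 ± 0.09 on Matrigel (0.00034). On gelatin Itga6 read 10.69 ± 0.06 in wild type and 11.05 ± 0.05 in Fz4-/- cells (SD, n = 3), and on Matrigel 10.25 to 10.54 and 11.07 to 11.16, with no overlap on either surface. The gelatin call of Itga6 was lost without Fz4-/- replicate 1 (adjusted p = 0.054) or 3 (0.0582) or wild type replicate 3 (0.0712). With replicates 2 and 3 averaged into 1 sample, the calls of Itgb4 on gelatin (adjusted p = 0.0527) and on Matrigel (0.052) and of Lama4 on Matrigel (0.0523) were lost.

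Itgb3, which forms the vitronectin receptor with alpha v, read 8.20, 8.25 and 8.05 in wild type and 9.48, 9.01 and 8.92 in Fz4-/- cells on Matrigel, a difference of 0.97 ± 0.16 (adjusted p = 0.00158). On gelatin the difference was 0.45 ± 0.16 (adjusted p = 0.0813; 0.00797 with the replicate block). The second Itgb3 probe set, at a mean of 5.59, differed by 0.34 on gelatin and 0.37 on Matrigel. Itgb5, another partner of alpha v, differed by -0.66 ± 0.15 on gelatin (adjusted p = 0.00949) and -0.78 ± 0.15 on Matrigel (0.00357). Its probe set has the suffix of shared probes, and on its probe set without a suffix the differences were -0.51 and -0.52 and not past the threshold (adjusted p of 0.132 and 0.119). The remaining probe sets differed by -1.08 and -1.47 on gelatin and by -1.13 and -1.22 on Matrigel. Itgb2, the leukocyte beta chain, was called lower on both surfaces, by -0.66 ± 0.19 and -0.76 ± 0.19, at levels of 3.22 to 4.92 that were below the median gene on all arrays. The adjusted p for Itgb2 on gelatin was 0.0772 to 0.141 without Fz4-/- replicate 1 or 2 or wild type replicate 2 or 3. On Matrigel it was 0.0668 without Fz4-/- replicate 1 and 0.0747 without wild type replicate 2. Laptm5, 1 of 7 markers on the leukocyte list and the one called there, moved with it, at 7.96 against 6.10 as group means on gelatin. Ptprc, the defining marker of that list, read 2.90 and 2.75 there.

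A few markers of other lists also moved with genotype in cells grown alone. Of 11 endothelial markers 3 were higher in Fz4-/- cells and none lower on each surface (medians 0.13 on gelatin and 0.24 on Matrigel), with the angiopoietin receptor Tek at 0.67 ± 0.12 and 0.84 ± 0.12 and Emcn at 0.64 ± 0.12 and 0.58 ± 0.12. Of 4 fibroblast markers only Pdgfra was called, lower by -1.31 ± 0.26 and -1.79 ± 0.26 (list medians -0.03 and -0.11). Dcn, of the same list, went the other way but was not called. Its gelatin means were 7.45 for Fz4-/- against 5.98 for wild type (SD 1.39). Its Matrigel means were 7.48 against 6.16 (SD 1.29 for wild type). Of 4 neuronal and photoreceptor markers only Tubb3 was called, lower by -1.07 ± 0.19 and -1.40 ± 0.19 (list medians -0.06 and 0). Of 8 pericyte and smooth muscle markers Acta2 was higher on gelatin, by 1.28 ± 0.18, and none was called on Matrigel. None of 5 glial or 5 epithelial markers was called. Their part in the differences of the members was not tested.

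Among the alpha subunits, Itga4 was higher in Fz4-/- cells by 1.61 ± 0.15 on gelatin (3.06-fold, adjusted p = 3.08e-05) and by 1.58 ± 0.15 on Matrigel (2.99-fold, adjusted p = 3.8e-05), with the values given above. The gelatin and Matrigel arrays of Fz4-/- cells, at 9.11 to 10.63, all lay above the highest wild type array, at 8.80.

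Itga8, a receptor for the RGD motif of nephronectin and fibronectin, read 5.77, 6.21 and 6.26 in wild type and 3.71, 4.67 and 4.75 in Fz4-/- cells on gelatin. On Matrigel it read 5.41, 6.14 and 6.19 against 3.18, 4.03 and 4.28. The differences were -1.71 ± 0.33 (3.26-fold lower, adjusted p = 0.00505) and -2.08 ± 0.33 (4.24-fold lower, 0.00138), although Itga8 was below the median gene on every array. Itga1, the alpha 1 collagen receptor, read 6.93, 7.43 and 7.28 in wild type and 5.65, 6.47 and 6.43 in Fz4-/- cells on gelatin, a difference of -1.03 ± 0.22 (2.04-fold lower, adjusted p = 0.00865). On Matrigel Itga1 read 7.08, 7.32 and 7.40 against 5.39, 5.97 and 5.74, a difference of -1.57 ± 0.22 (2.96-fold lower, adjusted p = 6e-04). No array of Itga8 or Itga1 overlapped between the genotypes, and with replicates 2 and 3 averaged their gelatin calls were lost (adjusted p of 0.0872 and 0.108). Itgax was called lower on gelatin, by -0.37 ± 0.11 (adjusted p = 0.0423), and its call was held under 11 of 22 other settings.

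With the replicate block 13 members were called on gelatin and 11 on Matrigel. The calls that it added were Itga7 (-0.33), Itgb3 (0.45), Lamb1 (0.42) and Lamb2 (-0.64) on gelatin and Itga3 (0.38) and Lamb2 (-0.62) on Matrigel. The other calls of both comparisons were the same with and without it. The share of all genes called with the block is not set beside these counts, so their rise is no result about the members alone.

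In the mixed RNA of wild type co-cultures, the laminin receptor subunits Itga6 and Itga3 and the laminin chains Lama4 and Lamb1 were higher with Norrin-expressing than with control HEK293 cells, and no member was called in Fz4-/- co-cultures. In wild type co-cultures 6 of the 34 members were higher and none lower, 17.6% of the members beside 9.57% of all genes (5.39% higher and 4.18% lower). The median over the members was 0.08, beside -0.02 over all genes. In Fz4-/- co-cultures limma called none of the 34, beside 0.456% of all genes, and 4 had an unadjusted p below 0.05. Wild type Norrin arrays lay wholly above the control arrays for 9 members and wholly below for none, beside 21.4% of all genes in either direction. In Fz4-/- co-cultures they lay above for 6 and below for 3, beside 19.5%.

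The list of 11 endothelial markers moved with Norrin in the same wild type co-cultures: 9 were higher and none lower, with a median difference of 0.74. Their mean level was 6.00 to 6.20 on the control arrays and 6.63 to 6.96 on the Norrin arrays, and 7.08 to 7.17 and 7.23 to 7.40 in Fz4-/- co-cultures, where none of 11 was called. Egfl7 differed by 1.28 ± 0.12 and Cdh5 by 1.06 ± 0.15 in wild type. The share of mouse endothelial RNA in each co-culture was not measured, and its part in the differences of the members was not tested. Fzd4 read 6.18 to 6.28 with control cells and 6.35 to 6.45 with Norrin cells, without overlap. Its difference was 0.16 ± 0.10 (adjusted p = 0.41 by limma), and 1 gene is no measure of the endothelial share. Of 4 fibroblast markers, Dcn was lower with Norrin cells in wild type, by -2.91 ± 0.22, and the other 3 were not past the threshold (median of the 4, -0.03). Of 7 leukocyte markers only Cd68 was called there, at -2.29 ± 0.22 (list median -0.08). Of 8 pericyte and smooth muscle markers only Acta2 was called, at 0.90 ± 0.12 (list median 0). No glial, neuronal or epithelial marker was called. The responses of Dcn, Cd68 and Acta2 differed between the genotypes past the threshold. The part of these cell types in the differences of the members was not tested.

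**Figure D4:**
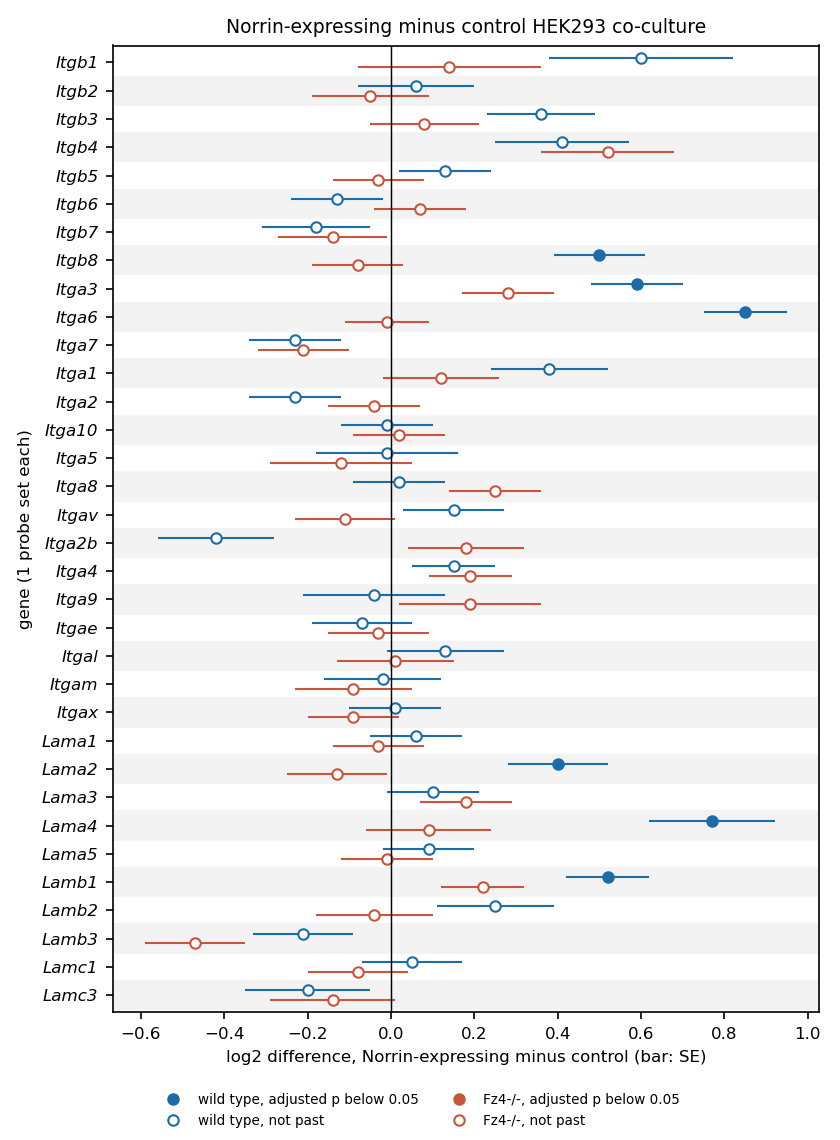
Difference in log2 intensity between co-cultures with Norrin-expressing and with control HEK293 cells (x axis) for each of the 34 members (y axis, by role), in wild type and Fz4-/- cells, with bars for the SE of limma and filled points for an adjusted p below 0.05. In wild type 6 points are filled, from 0.40 for Lama2 to 0.85 for Itga6, and in Fz4-/- none is.

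Itga6, the alpha subunit of the laminin receptors alpha 6 beta 1 and alpha 6 beta 4, read 6.68, 6.97 and 6.90 with control cells and 7.63, 7.75 and 7.73 with Norrin cells in wild type. In Fz4-/- co-cultures it read 8.34, 8.24 and 8.34 with control cells and 8.25, 8.32 and 8.34 with Norrin cells. The wild type groups were apart and the Fz4-/- groups overlapped. The difference was 0.85 ± 0.10 in wild type (1.81-fold, adjusted p = 2.28e-05) and -0.01 ± 0.10 in Fz4-/- cells (adjusted p = 0.994). Itga6 was the only member whose response to Norrin differed between the genotypes past the threshold, beside 2.12% of all genes (1.24% lower), with a difference of responses of -0.86 ± 0.15 (adjusted p = 0.00271). That call was held under 21 of 22 other settings and lost where replicates 2 and 3 were averaged into 1 sample (-0.90, adjusted p = 0.0794). The second Itga6 probe set differed by 0.60 in wild type and 0.05 in Fz4-/- cells.

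Itga3, the alpha subunit of the laminin receptor alpha 3 beta 1, read 6.61, 6.63 and 6.53 with control cells and 6.95, 7.29 and 7.28 with Norrin cells in wild type, a difference of 0.59 ± 0.11 (adjusted p = 0.00164). In Fz4-/- co-cultures it read 7.63 to 7.72 with control cells and 7.89 to 8.01 with Norrin cells, also without overlap, a difference of 0.28 ± 0.11 (adjusted p = 0.446). With all 24 arrays in 1 fit, or replicates 2 and 3 averaged, the wild type adjusted p of Itga3 was 0.099 and 0.064. The difference of responses, -0.30 ± 0.15, was not past the threshold (adjusted p = 0.461). Itga7, the third alpha subunit for laminin, differed by -0.23 ± 0.11 in wild type (adjusted p = 0.257) and -0.21 ± 0.11 in Fz4-/- cells.

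Lama4 read 5.04, 5.35 and 5.32 with control cells and 5.59, 6.21 and 6.20 with Norrin cells in wild type, so that replicate 1 was lowest in both groups. The difference was 0.77 ± 0.15 (1.70-fold, adjusted p = 0.00273), and 0.09 ± 0.15 in Fz4-/- co-cultures, whose arrays read 3.84, 3.83 and 3.64 against 4.04, 3.73 and 3.81. The wild type adjusted p of Lama4 was 0.0801 with all 24 arrays in 1 fit and 0.074 with replicates 2 and 3 averaged. The difference of responses was -0.67 ± 0.21 (adjusted p = 0.142), and without Norrin replicate 1 of wild type it was -0.88 and past the threshold (adjusted p = 0.00766).

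Lamb1 read 6.91, 6.83 and 6.91 with control cells and 7.44, 7.27 and 7.52 with Norrin cells in wild type, a difference of 0.52 ± 0.10 (adjusted p = 0.00291), and differed by 0.22 ± 0.10 in Fz4-/- co-cultures. Its probe set has a suffix that marks probes shared by several transcripts. On the brightest probe set without one the wild type difference was 0.41 and not past the threshold (adjusted p = 0.243). Of the other Lamb1 probe sets without a suffix, that at a mean of 6.66 differed by 0.72 in wild type and that at 3.14 by -0.00. Lama2, the alpha chain of muscle laminin, read 4.58, 4.71 and 4.67 against 4.84, 5.02 and 5.28 in wild type, a difference of 0.40 ± 0.12 at an adjusted p of 0.0489. The Lama2 call was held under 8 of 22 other settings, and without Norrin replicate 3 of wild type the difference was 0.28 (adjusted p = 0.242). The differences of responses were -0.31 ± 0.15 for Lamb1 (adjusted p = 0.42) and -0.53 ± 0.17 for Lama2 (0.162). Without Norrin replicate 1 of wild type, that of Lama2 was -0.63 (adjusted p = 0.0486).

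Itgb8, which binds latent TGF-beta together with alpha v, read 2.01, 2.12 and 1.86 with control cells and 2.49, 2.47 and 2.52 with Norrin cells in wild type. The difference was 0.50 ± 0.11 (adjusted p = 0.00589) between groups that did not overlap, at levels far below the median gene. With replicates 2 and 3 averaged, its adjusted p was 0.0656. In Fz4-/- co-cultures it was -0.08 ± 0.11, and the difference of responses was -0.57 ± 0.15 (adjusted p = 0.0651).

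Itgb1, the common partner, read 7.82, 9.11 and 9.04 with control cells and 9.32, 9.25 and 9.21 with Norrin cells in wild type. Control replicate 1 lay more than 1 unit below the other control arrays, and the difference of 0.60 ± 0.22 was not past the threshold (adjusted p = 0.104). Without that array it was 0.18 (adjusted p = 0.373). On the brightest Itgb1 probe set without a suffix it was 0.78 (adjusted p = 0.0217). Itgb4 differed by 0.41 ± 0.16 in wild type (adjusted p = 0.143), where Norrin replicate 1 read 5.77 and the others 6.58 and 6.48, and without that array by 0.66 (adjusted p = 0.0016). In Fz4-/- co-cultures Itgb4 read 6.88, 6.78 and 7.06 against 7.37, 7.34 and 7.59, a difference of 0.52 ± 0.16 at an adjusted p of 0.274. Itgb3 differed by 0.36 ± 0.13 in wild type (adjusted p = 0.113) and was past the threshold without control replicate 1 (0.49, adjusted p = 0.0258) or Norrin replicate 1 (0.47, 0.034). The alpha v and alpha 5 subunits, Itgav and Itga5, differed by 0.15 ± 0.12 and -0.01 ± 0.17. Itga2b read 6.52, 6.20 and 5.87 against 5.82, 5.88 and 5.63 in wild type, a difference of -0.42 ± 0.14 (adjusted p = 0.0791). It was past the threshold with the replicate block (0.0309) and without control replicate 3 (-0.58, adjusted p = 0.0133).

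**Figure D5:**
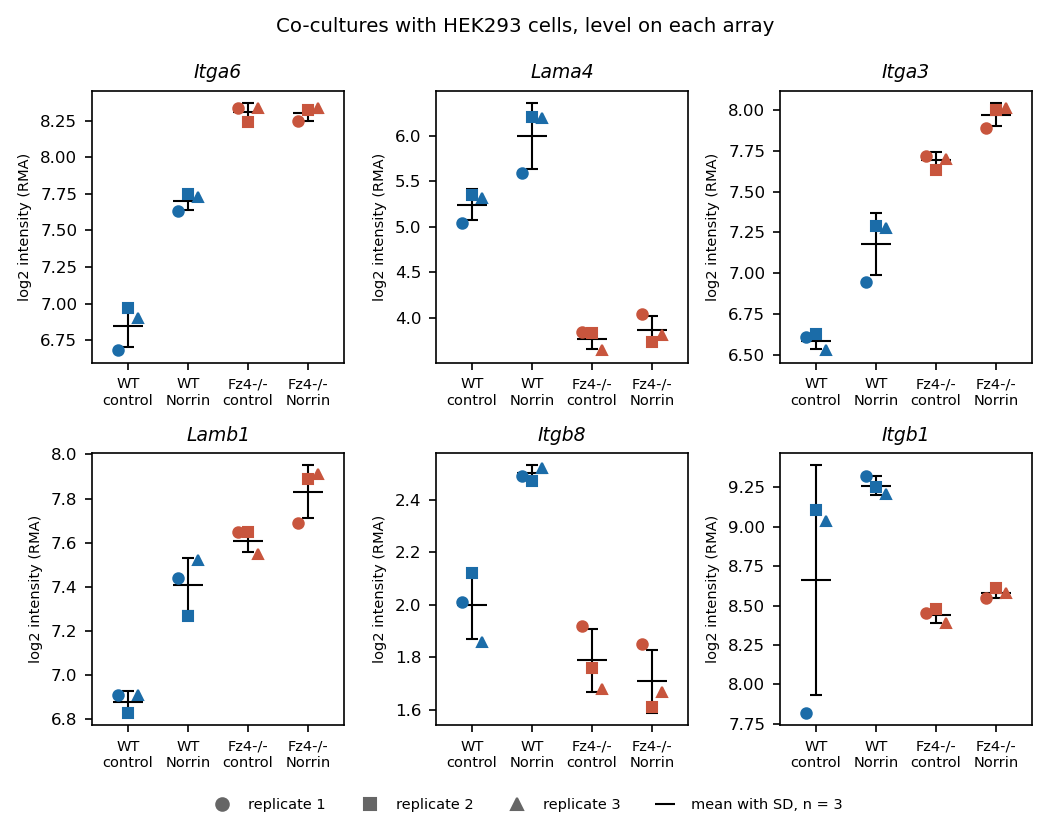
Log2 intensity (y axis) on each co-culture array for 6 members, by genotype and kind of HEK293 cell (x axis), with the mean and SD of 3 replicates and a symbol for each replicate number. Itga6 is apart between control and Norrin in wild type and overlaps in Fz4-/- cells, and the wild type control arrays of Itgb1 hold 1 array at 7.82 below 2 near 9.

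Of the 19 other basement membrane genes, 6 were higher and none lower with Norrin cells in wild type co-cultures. Over all genes 5.39% were higher and 4.18% lower. Ntn4 differed by 1.17 ± 0.12, Fbln2, a fibulin, by 1.05 ± 0.17, Nid2, which joins laminin to collagen IV, by 0.86 ± 0.16, and Pxdn, the peroxidase that crosslinks collagen IV, by 0.74 ± 0.13. The response differed between the genotypes for Ntn4 (-0.94 ± 0.17, adjusted p = 0.00383) and Fbln2 (-1.08 ± 0.25, adjusted p = 0.0258).

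Of 15 other receptors 4 were higher and 1 lower in wild type, beside the same 5.39% and 4.18% of all genes. Dag1, which encodes the laminin receptor dystroglycan, differed by 0.70 ± 0.11 and Utrn, its link to actin, by 0.84 ± 0.11. Dag1 also differed between the genotypes in its response (-0.64 ± 0.16, adjusted p = 0.0445). Of 21 ligands 5 were higher and 3 lower: Fn1, fibronectin, differed by 1.00 ± 0.10, Icam2 by 1.29 ± 0.13, Thbs1 by 1.05 ± 0.23 and Icam1, a ligand of LFA-1, by -1.41 ± 0.14. Icam1 was also lower in Fz4-/- co-cultures, by -0.74 ± 0.14 (adjusted p = 0.0177). Of 27 focal adhesion genes 8 were higher and 1 lower in wild type, among them Flna at 0.68 ± 0.12 and Vcl at 0.55 ± 0.11.

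Between the genotypes in co-culture, genotype and array set cannot be told apart, since all Fz4-/- co-cultures form one set and all wild type co-cultures another. The median over all genes was -0.20 in both comparisons, and changes are to be read relative to it. With control cells 19 of the 34 members were called, 7 higher and 12 lower in Fz4-/- cells, 55.9% of the members beside 50.9% of all genes (12.1% higher and 38.8% lower). With Norrin cells 21 were called, 7 higher and 14 lower, 61.8% beside 49.9% (11.5% higher and 38.4% lower). The genotypes did not overlap for 21 and 24 members, beside 60.0% and 56.9% of all genes. With each array centred on its median gene, 7 were higher and 9 lower in both comparisons, and quantile normalization gave 7 and 9 with control cells and 8 and 10 with Norrin cells. The median over the members was -0.20 in both. Markers of several cell types moved with genotype as well. Of 11 endothelial markers, 9 were higher and none lower in Fz4-/- co-cultures with control cells (median 0.97), and 7 were higher and 2 lower with Norrin cells (median 0.45). With control cells 3 of 4 fibroblast, 4 of 5 epithelial and 4 of 8 pericyte and smooth muscle markers were lower and none higher, at medians of -0.66, -0.60 and -0.33, and Dcn differed by -4.51 ± 0.22. With Norrin cells 3, 4 and 5 of these were lower and none higher, at -0.88, -0.43 and -0.31. The part of these cell types in the differences of the members was not tested.

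Itga4 read 3.28, 3.17 and 3.21 in wild type and 5.95, 5.81 and 5.81 in Fz4-/- co-cultures with control cells, a difference of 2.63 ± 0.10. Lama4 differed there by -1.47 ± 0.15, Itgb4 by 1.04 ± 0.16 and Itga1 by -1.13 ± 0.14, each in the direction that it had in cells grown alone. The second probe set of Lama4 differed by -0.90 and that of Itga1 by 0.06. The other Itga4 probe sets differed by 2.18, 0.99, 0.30 and -0.19. Itgb5 read 6.77, 6.55 and 6.43 in wild type and 4.90, 4.93 and 4.87 in Fz4-/- co-cultures, a difference of -1.68 ± 0.11. Lama2 and Lama3, the alpha chains of muscle and epithelial laminin, differed by -1.09 ± 0.12 and -1.10 ± 0.11, and by -0.23 ± 0.12 and 0.03 ± 0.14 in cells on gelatin. Itga3 was higher in Fz4-/- co-cultures by 1.10 ± 0.11, and Itga6 by 1.46 ± 0.10 with control cells and 0.60 ± 0.10 with Norrin cells. Not every call of cells grown alone was found in co-culture. Itgb3, called higher in Fz4-/- cells on Matrigel, differed by 0.04 with control cells and -0.23 with Norrin cells. Itgb2, called lower in Fz4-/- cells on both surfaces, differed by -0.01 and -0.12, and neither was called in co-culture. The other calls with control cells were higher for Itga2, Lama1 and Lamb1, at 0.34 to 0.73, and lower for Itga2b, Itga5, Itga8, Itgae, Itgax, Lamb3 and Lamc1, at -0.77 to -0.38. With each array centred on its median gene, Itga5 (-0.37, adjusted p = 0.1), Itgae (-0.19, 0.242) and Lamc1 (-0.19, 0.26) were not past the threshold with control cells. With Norrin cells Itgb1, Itgb8 and Lamb2 were called lower as well and Itga2b was not. Itgae, Itga8, Itgb1, Lamb2 and Lamc1 were past the threshold there only without centring on the median gene. On its brightest probe set without a suffix, Itgb1 differed there by -0.23 (adjusted p = 0.372 by limma). Without centring, the second probe sets differed there by -1.01 for Lamc1, -0.57 for Itga8 and -0.00 for Itgae. With control cells that of Lamc1 differed by -0.88.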

How the data were processed

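The deposited values are log2 intensities made by the authors with RMA, per the submitters' processing notes. The version and the arrays that entered one normalization are not given there. Of 45101 probe sets, 34945 that the platform annotation gives 1 symbol were used, which made 18193 genes, and 73 of these probe sets belonged to the 34 members. With limma 3.58.1 in R 4.3.3 (package data.table, version 1.17.8), group means were fitted apart for the 12 arrays of cells grown alone and the 12 co-cultures, with 8 residual degrees of freedom each, and p-values were adjusted over all genes. With 3 arrays against 3, an exact permutation test of 1 gene cannot go below 0.1. The fit was tested on simulated data.

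Each member is counted in every comparison, but not each is given a value in the text for every comparison. Values on every array are given for members called on Matrigel, with Norrin or for a difference of responses, and for genotype differences of at least 1 in cells grown alone. Other lists are named by up to 4 called genes, with a few genes outside these rules (Itgb1, Itgb3, Itgb4, Lamb2, Laptm5 and others) chosen after their values were seen. The members, lists and rules were chosen with earlier results of these data known.

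Deviations of same-numbered arrays from their group means correlated at 0.24 to 0.72 in the 4 comparisons of cells grown alone, 0.10 to 0.36 in the wild type Norrin comparison and 0.14 to 0.37 between genotypes with Norrin. They correlated at -0.19 to 0.01 and -0.05 to 0.07 in the other 2 co-culture comparisons, where the numbers do not pair the arrays. The labels do not say what a number marks, and for Matrigel the same number was the closest match in 2 and 3 of 6 checks, so the pairing rests on the correlations alone. Alternatives included other normalizations, filters, probe set rules, all 24 arrays in 1 fit, the replicate block and left-out arrays. Figures were drawn in matplotlib 3.10.9 (Python 3.11.15, numpy 2.4.6, pandas 2.3.3).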

Additional observations from a re-analysis of the deposited data

Results flagged for a closer look

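The response of Itga6 to Norrin differed between the genotypes by the test of the difference itself, at -0.86 ± 0.15 (limma, adjusted p = 0.00271). All 3 wild type Norrin arrays lay above the 3 control arrays, while the Fz4-/- arrays overlapped. In wild type co-cultures 9 of 11 endothelial markers were higher with Norrin as well, with a median of 0.74, and for 3 of the 11 (Tek, Egfl7 and Esam) the response differed between the genotypes. The part of the endothelial share of RNA in the Itga6 result was not tested.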

How the results depend on the processing

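Across the alternatives no member called reversed its direction. Itga4 on Matrigel in both genotypes and Itga6 with Norrin in wild type were called under all 23 alternatives. The count of members called moved as follows. For most alternatives the share of all genes called is not set beside the count, so a count is no result about the members alone. With only genes above the median level, 2 were called on Matrigel in wild type, 2 in Fz4-/-, and 12 between genotypes with control and 12 with Norrin cells. With all probe sets of a gene averaged, the counts were 8 and 8 on Matrigel and 3 for the difference of Norrin responses. With only the arrays compared in the fit, they were 2 and 3 on Matrigel and 1 for Norrin in Fz4-/- cells. With only replicates 2 and 3, they were 8 and 11 on Matrigel, 15 for genotype on gelatin, 10 for Norrin in wild type and 3 for the difference of Norrin responses. With replicates 2 and 3 averaged into 1 sample, they were 1 and 1 for the Matrigel responses, 2 and 5 between genotypes on gelatin and on Matrigel, 2 for wild type Norrin and 0 for the difference of Norrin responses. Quantile normalization and trended, robust variances each gave 2 for that difference. Leaving out 1 array at a time gave 2 to 5 calls for Matrigel in wild type and 3 to 6 in Fz4-/- cells, 5 to 8 for Norrin in wild type, 0 to 1 in Fz4-/- cells (Itgb4, 0.52, without Norrin replicate 1 of wild type) and 1 to 3 for the difference of Norrin responses. Between genotypes it gave 6 to 10 calls on gelatin, 8 to 11 on Matrigel, and 16 to 20 and 20 to 22 in co-culture. The wild type Matrigel count was 2 without wild type gelatin replicate 2 or Matrigel replicate 1 or 3, and the Fz4-/- count was 3 without Fz4-/- gelatin replicate 2 or 3 or Matrigel replicate 1 or 2. The difference of Norrin responses was called for 2 members without wild type control replicate 3 and 3 without wild type Norrin replicate 1.

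With the replicate block, 9 members were called on Matrigel in wild type and 12 in Fz4-/- cells; it changed no call of the Norrin comparison in Fz4-/- cells or of the differences of responses, and added Itga2b (-0.42, adjusted p = 0.0309) to Norrin in wild type. Between genotypes in co-culture it gave 20 and 22 calls in place of 19 and 21. The share of all genes called with the block is not set beside any of these counts. Over all genes, the Matrigel split in wild type was 1221 higher and 2135 lower, 824 and 2598 with median centring and 1475 and 1619 with quantile normalization, and the genotype split on Matrigel was 1258 and 1596, 2473 and 1131, and 1583 and 1479. Dim probe sets and 3 arrays per group limit what could be detected.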
